A study of Mus musculus with 128 samples.

Results

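Cytochrome P450 genes were followed in 8 tissues of ageing mice. They were chosen by symbol: a gene belonged if its symbol was built as Cyp, a family number, a subfamily letter and a gene number, if it was not marked as a pseudogene, and if its mean reached 20 normalised reads in at least 1 tissue. Of 55285 symbols in each tissue table, 100 had such a name and 83 passed the level, in 35 subfamilies of 15 families. The members just inside the level were Cyp2b13 (mean of 20.7 normalised reads in Liver), Cyp21a1 (25.8) and Cyp2c39 (38.1), and those just outside were Cyp2j7 (16.8 in Kidney), Cyp3a44 (7.19) and Cyp2d11 (6.76). The lanosterol demethylase gene Cyp51 carries no gene number in these tables and so was not a member.

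The study is a bulk RNA-seq atlas of ageing. Untreated wild-type male C57BL/6J mice, an inbred laboratory strain, were sampled at 6, 15, 24 and 30 months of age, and 4 libraries were made per age from Aorta, Brain, Heart, Kidney, Liver, Lung, Muscle (the gastrocnemius of the calf) and Skin, giving 128 libraries in 32 groups. The records of the Aorta libraries name neither sex nor strain, which for them come from the design text of the series. No record says which libraries came from the same animal, so the p-values below measure the spread between libraries. Every change with age was set against the same 4 libraries of 6 months within a tissue, so the changes at 15, 24 and 30 months share those controls. All animals being male, no female level is at hand for the genes that differ between the sexes.

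P450 enzymes are heme proteins that insert an oxygen atom into their substrates. Most sit in the endoplasmic reticulum and take electrons from the reductase Por, while a mitochondrial minority takes them from the ferredoxin Fdx1. Liver uses the Cyp1, Cyp2 and Cyp3 families to clear drugs, toxins and steroids, the Cyp4 family to hydroxylate fatty acids, and Cyp7a1, Cyp8b1, Cyp7b1 and Cyp27a1 to turn cholesterol into bile acids, and kidney P450 enzymes also make active vitamin D and lipid signals that act on blood vessels and salt transport.

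The promoters of 6 members are shown because the results below include 2 pairs of genes with nearly the same promoter. A further reason is that 7 members hold a motif of a liver factor, which is shown in 2 of them. No link between a promoter and a change with age was tested. They were taken from a set of RefSeq promoters for GRCm38.p6 that held 63 of the 83 members. Each is the 250 bases before the annotated start, written 5′ to 3′ on the strand of the gene. Capitals mark the bases at which Cyp2a4 and Cyp2a5 differ in their alignment, together with the end base of each that has no partner, since the pair of windows is offset by 1 base, and the bases at which Cyp2b9 and Cyp2b13 differ. In Cyp3a11 and Cyp8b1 capitals mark the motif CAAAGTCCA, which is known as a binding sequence of the liver factor Hnf4a.
Cyp2a4, chr7:26306942-26307191, plus strand: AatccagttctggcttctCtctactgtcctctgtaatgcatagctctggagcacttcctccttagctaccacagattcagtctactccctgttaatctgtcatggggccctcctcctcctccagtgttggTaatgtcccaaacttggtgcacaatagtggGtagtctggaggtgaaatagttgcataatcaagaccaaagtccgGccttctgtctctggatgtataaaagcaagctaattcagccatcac
Cyp2a5, chr7:26835089-26835338, plus strand: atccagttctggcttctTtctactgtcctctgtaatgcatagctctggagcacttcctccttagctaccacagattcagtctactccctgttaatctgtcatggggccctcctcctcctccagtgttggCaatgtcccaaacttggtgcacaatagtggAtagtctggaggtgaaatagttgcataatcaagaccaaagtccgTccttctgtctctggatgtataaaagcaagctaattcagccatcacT
Cyp2b9, chr7:26173159-26173408, plus strand: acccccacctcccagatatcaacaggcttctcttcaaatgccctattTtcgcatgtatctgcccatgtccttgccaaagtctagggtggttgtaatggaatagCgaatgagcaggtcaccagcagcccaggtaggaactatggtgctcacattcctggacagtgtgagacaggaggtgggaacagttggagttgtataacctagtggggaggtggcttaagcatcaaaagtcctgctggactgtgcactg
Cyp2b13, chr7:26061245-26061494, plus strand: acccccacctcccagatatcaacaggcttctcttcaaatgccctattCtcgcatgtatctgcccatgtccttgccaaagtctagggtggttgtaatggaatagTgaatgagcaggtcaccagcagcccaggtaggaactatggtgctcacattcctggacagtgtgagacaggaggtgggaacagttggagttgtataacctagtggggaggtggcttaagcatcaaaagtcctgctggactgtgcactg
Cyp3a11, chr5:145879855-145880104, minus strand: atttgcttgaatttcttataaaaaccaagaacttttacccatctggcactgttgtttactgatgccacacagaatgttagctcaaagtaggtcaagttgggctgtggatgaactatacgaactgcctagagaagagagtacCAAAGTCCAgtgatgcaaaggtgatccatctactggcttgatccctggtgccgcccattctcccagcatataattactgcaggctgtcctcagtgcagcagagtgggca
Cyp8b1, chr9:121916306-121916555, minus strand: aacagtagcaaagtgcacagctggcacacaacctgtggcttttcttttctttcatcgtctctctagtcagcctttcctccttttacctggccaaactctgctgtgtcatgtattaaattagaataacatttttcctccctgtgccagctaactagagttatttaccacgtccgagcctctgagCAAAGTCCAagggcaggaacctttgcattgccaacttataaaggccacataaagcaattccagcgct
Cyp2a4 and Cyp2a5 were identical at 245 of 250 bases and Cyp2b9 and Cyp2b13 at 248, while Cyp2b9 and its drug-inducible relative Cyp2b10 shared 186.

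Motifs were searched on both strands of windows of 300 bases, from 250 before the start to 50 after it, over 32851 promoters. CAAAGTCCA stood in 0.475% of all promoters and in those of 7 members, namely Cyp2c40, Cyp2c67, Cyp2c68, Cyp2c69, Cyp2c70, Cyp3a11 and Cyp8b1. The nuclear receptor half-site AGGTCA stood in 16.3% of all promoters and in those of 17 members, including Cyp2a4, Cyp2a5, Cyp2b9, Cyp2b13 and Cyp3a11. TATAAA stood in 13.6% of all promoters and in those of 25 members, Cyp2a4, Cyp2a5, Cyp3a11 and Cyp8b1 among them. The dioxin response core GCGTG stood in 32.4% of all promoters and in those of 16 members, and TTCNNNGAA, the sequence bound by Stat5, in 8.3% and in those of 4 members. These are matches of letters in a window, and although none of the 5 motifs contains another, their matches can overlap in part. Members without a promoter in the set, among them Cyp4a12a, Cyp4a12b, Cyp7b1 and Cyp2u1, were not searched.

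Copies of P450 genes differ so little that short reads may be divided between them by estimate. Over stretches of 75 bases in the GENCODE vM21 transcripts, 10 of 82 members shared at least 20% of their stretches with another gene, led by Cyp2c40 (45.9%), Cyp2c69 (42.6%), Cyp4a12b (41.3%) and Cyp4a12a (40.8%), and including Cyp2a5 (22.3%) and Cyp2a4 (22.1%). Values of these 10 genes are uncertain to that degree, whereas 31 members shared no stretch.

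Liver held the widest set of P450 genes. Means of at least 20 normalised reads were reached by 65 members in Liver, 39 in Kidney, 33 in Skin, 30 in Lung, 23 in Brain, 20 in Aorta, 18 in Muscle and 16 in Heart, 14 members reached that level in all 8 tissues and 40 in 1 tissue. By CPM, counts scaled to equal depth, 47 members had their highest mean in Liver, 16 in Skin, 10 in Kidney, 7 in Lung and 3 in Brain. P450 genes took up 2.87% ± 0.103 (SD, n = 4) of Liver reads at 6 months and 2.47% ± 0.221 (SD, n = 4) at 30 months. The share was 2.386% ± 0.2815 (SD, n = 4) at 15 months and 2.405% ± 0.2411 (SD, n = 4) at 24 months. Replicate 3 of 30 months held 2.788%, against 2.292% to 2.43% in the others of that age.

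Depth was 7.65 to 82.8 M reads per library, with a median of 15.6 M. Defining markers were present in Liver and Kidney. The hepatocyte markers summed to at least 1648000 normalised reads in the Liver libraries of 6 and 30 months. The proximal tubule markers summed to at least 167100 in the Kidney libraries of those ages. No comparison of these sums with other tissues is given here, nor a check of defining markers in Aorta, Brain, Heart, Muscle or Skin. Replicate 3 of Liver at 30 months, replicates 3 and 4 of Kidney at 30 months, replicate 3 of Muscle at 30 months and replicate 4 of Heart at 24 months stood apart from the other libraries of their tissue in rank correlation. Results that rest on the Liver, Kidney and Muscle libraries named here are given with and without them where they moved. Markers of macrophages were called higher at 30 months in Liver, Kidney, Lung, Heart, Muscle and Brain, and their counts stand in the account of each. In bulk tissue, fewer cells of a type and less RNA per cell cannot be told apart.

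At 30 against 6 months, 30 of 66 P450 genes tested in Liver passed the threshold, an adjusted p under 0.05 in limma-trend with Benjamini-Hochberg adjustment over all genes tested in the tissue. Of these 11 rose and 19 fell, beside 24.9% of all genes called in that comparison, 13.8% higher and 11.0% lower. The median log2 fold change of the P450 genes was -0.25, against -0.02 for all genes tested. Genes near 0 at 6 months enter the tested set only through their older libraries, so these counts describe the tested genes and not all members. In Kidney 20 of 47 were called, 13 higher and 7 lower, beside 28.3% of all genes, 14.1% higher and 14.2% lower. In Lung 8 of 32 were called, 6 higher and 2 lower, beside 19.4% of all genes, 10.7% higher and 8.64% lower. No other tissue gave more than 3 calls. Across the tissues 44 members were called at least once at 30 months, 17 in 2 or more tissues and 5 in opposite directions. Some calls behind the 5, such as that of Cyp4a12b in Kidney, were lost on omission of a library, as given below. No share over all genes is at hand for these counts across tissues, so they are not read as particular to P450 genes.

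**Figure D1:**
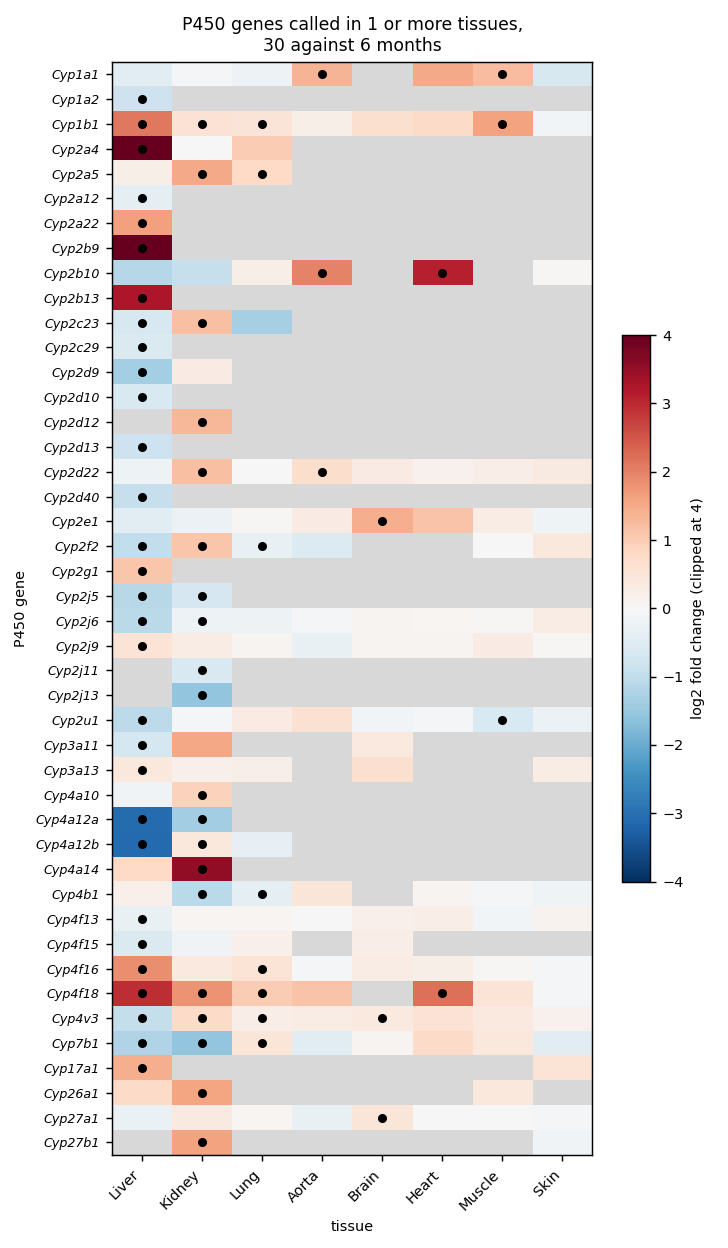
Heat map of the 44 P450 genes called in at least 1 tissue (rows) across the 8 tissues (columns). Colour is the log2 fold change of 30 against 6 months, clipped at 4 in either direction, black dots mark adjusted p under 0.05 in limma-trend, and grey cells were not tested. Most dots lie in Liver (30) and Kidney (20), and Cyp4v3, Cyp2f2, Cyp7b1, Cyp2c23 and Cyp4a12b carry dots of opposite colour in different tissues.

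In Liver all 5 male-typical P450 genes fell, and 4 of 9 tested female-typical ones rose. These counts stand beside 11.0% of all genes called lower and 13.8% higher. Cyp2a4 and Cyp2b13 lay near 0 at 6 months and entered the test through their older libraries. The count of 4 of 9 was thus partly set by the choice of tested genes. The male-typical list (Cyp4a12a, Cyp4a12b, Cyp2d9, Cyp7b1 and Cyp2u1) summed to between 48790 and 51710 normalised reads at 6 months and to between 7969 and 23340 at 30 months, with a median log2 fold change of -1.35 beside -0.02 for all genes. Cyp4a12a makes the vasoactive lipid 20-HETE from arachidonic acid in male mice. Its normalised reads were 9704, 12660, 12170 and 10120 at 6 months, 10250, 9350, 6797 and 8561 at 15, 4376, 6567, 5809 and 4446 at 24 and 1481, 3468, 168 and 3540 at 30 months. Every library of 24 and 30 months lay below every library of 6 months, and replicate 3 of 30 months lay far below its 3 companions. The log2 fold change at 30 months was -3.07 ± 0.65 (SE), adjusted p = 0.00339, and -2.08 (adjusted p = 0.000145) without that replicate. The near-identical neighbour Cyp4a12b read 4577, 4051, 3487 and 3558 at 6 months and 616, 1004, 102 and 651 at 30 months. Its groups were again apart, with replicate 3 lowest and a log2 fold change of -3.11 ± 0.48 (SE), adjusted p = 0.000556, or -2.40 (adjusted p = 8.12e-06) without it. Of the stretches of Cyp4a12a 40.8% are shared with Cyp4a12b, and 41.3% the other way. The division of reads between this pair is thus uncertain, and these falls are not fully separate.

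Cyp2d9, a male-specific steroid hydroxylase, read 30220, 26190, 29630 and 29160 at 6 months, 26250, 25790, 19000 and 22700 at 15, 16040, 17430, 24370 and 18590 at 24 and 12140, 15110, 6460 and 13800 at 30 months. The ranges of 6 and 30 months did not overlap, and the values of 24 months lay below those of 6 months (log2 fold change at 30 months -1.35 ± 0.21 (SE), adjusted p = 0.000652). The change was -1.08 (adjusted p = 0.000238) without replicate 3. Cyp7b1, the oxysterol hydroxylase of the alternative bile acid pathway, read 6493, 5407, 5234 and 5847 at 6 months, 6503, 6855, 8745 and 8231 at 15 and 3089, 3492, 1127 and 3056 at 30 months. All 4 libraries of 15 months were at or above the top of the 6-month range, and all 4 of 30 months were below it. The fall at 30 months was -1.21 ± 0.26 (SE), adjusted p = 0.00366 on the log2 scale, and -0.84 (adjusted p = 0.000664) without replicate 3. Cyp2u1, a fatty acid hydroxylase, gave a log2 fold change of -1.05 ± 0.36 (SE), adjusted p = 0.0425, a call that was lost without any of replicates 1, 2 and 3 of 6 months or 2 and 3 of 30 months (adjusted p up to 0.136) and under edgeR.

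Among the female-typical genes Cyp2a4, Cyp2b9, Cyp2b13 and Cyp17a1 rose. Cyp2a4, a steroid hydroxylase of female liver, read 0, 1.69, 8.02 and 7.95 at 6 months, 17.3, 1.28, 2.07 and 7.61 at 15, 26.9, 16.2, 14.8 and 32.2 at 24 and 41.1, 71.2, 75.5 and 131 at 30 months. It was near the floor of detection at 6 months, and the ranges of 24 and 30 months lay above that of 6 months without touching it. The log2 fold changes were 2.54 ± 0.72 (SE), adjusted p = 0.0325 at 24 months and 4.28 ± 0.72 (SE), adjusted p = 0.000964 at 30 months. Its promoter twin Cyp2a5, which hydroxylates coumarin and nicotine, read 16260, 14920, 19550 and 18430 at 6 months, 9521, 11640, 8077 and 12040 at 15 and 18710, 16800, 25010 and 21350 at 30 months. The 15-month libraries were all below those of 6 months (log2 fold change -0.76 ± 0.15 (SE), adjusted p = 0.0275), while the 30-month range overlapped that of 6 months (0.24 ± 0.15 (SE), adjusted p = 0.291). Of the stretches of Cyp2a4 21% are shared with Cyp2a5, and of those of Cyp2a5 15.7% with Cyp2a4, so part of the small Cyp2a4 signal may be assigned by estimate, and whether this moves with age was not tested.

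Cyp2b9, a female-predominant member of the phenobarbital-responsive subfamily, read 120.4, 65.9, 36.9 and 17.9 at 6 months, 51.1, 15.3, 10.3 and 638 at 15, 494, 159, 533 and 395 at 24 and 593, 849.5, 3319 and 672 at 30 months. Replicate 4 of 15 months and replicate 3 of 30 months stood high, and all libraries of 24 and 30 months exceeded all of 6 months. The log2 fold change at 30 months was 4.39 ± 0.98 (SE), adjusted p = 0.00465, or 3.83 (adjusted p = 0.0154) without replicate 3. Cyp2b13, whose promoter differs from that of Cyp2b9 at 2 bases, read 3.6, 3.38, 4.81 and 0 at 6 months, 17.9, 11.6, 59 and 42.6 at 24 and 10.7, 29.4, 79.5 and 30.2 at 30 months. Its older libraries were all above its youngest ones (log2 fold change at 30 months 3.23 ± 0.92 (SE), adjusted p = 0.0177), but the call was lost without replicate 3 of 30 months (2.76 (adjusted p = 0.0571)) or replicate 4 of 6 months (adjusted p up to 0.0605). Cyp17a1, the steroid hydroxylase and lyase, read 36, 43.9, 69 and 77.5 at 6 months and 92.9, 72.7, 406 and 175 at 30 months. These ranges overlapped, and replicate 3 of 30 months was the highest. Its log2 fold change was 1.44 ± 0.41 (SE), adjusted p = 0.0171, or 0.96 (adjusted p = 0.0402) without replicate 3, and the call was lost without replicate 1 of 6 months (adjusted p = 0.0564). The other 5 tested did not pass, with log2 fold changes of 0.94 (adjusted p = 0.419) for Cyp2c69, 0.92 (adjusted p = 0.0941) for Cyp39a1, 0.80 (adjusted p = 0.384) for Cyp4a14, -0.10 (adjusted p = 0.905) for Cyp2c40 and -1.14 (adjusted p = 0.144) for Cyp2b10. The female-typical list had a median of 0.94, and 4 of its 13 listed genes were not members. That median describes the tested genes alone, of which Cyp2a4 and Cyp2b13 entered through their older libraries.

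**Figure D2:**
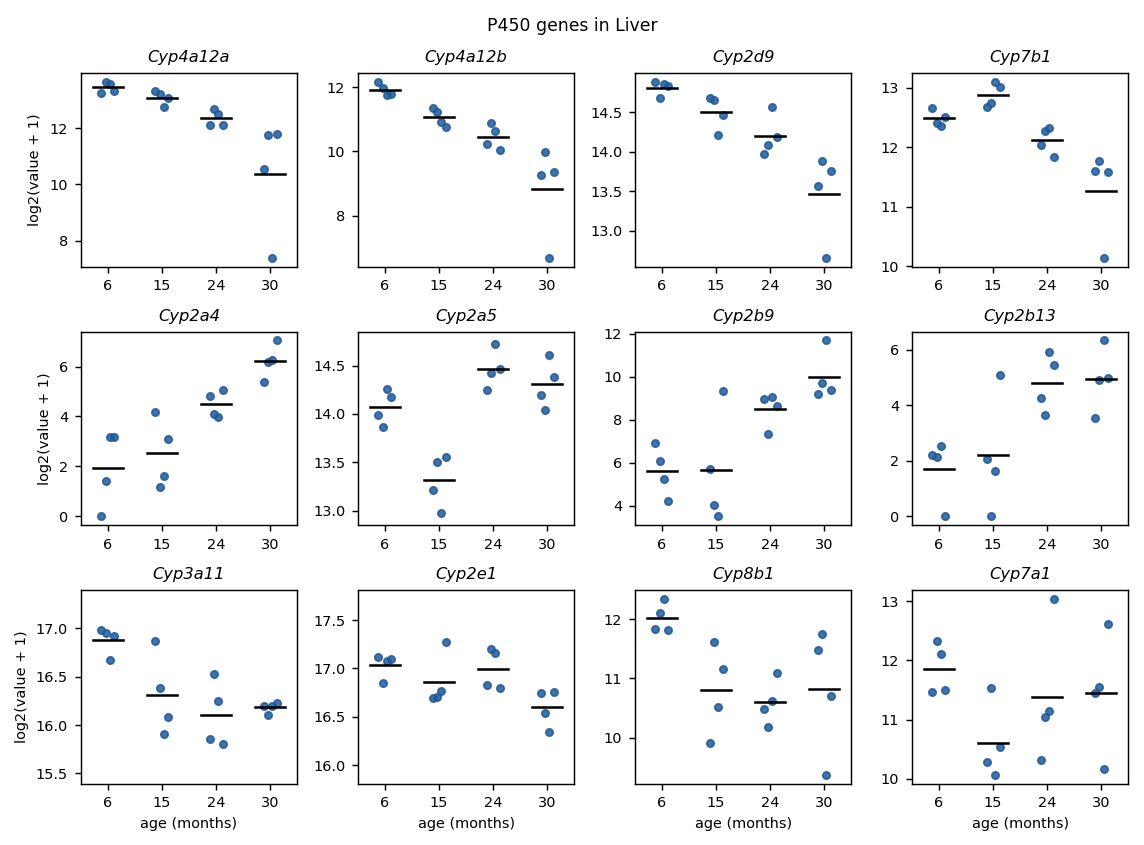
Normalised reads of 12 P450 genes in Liver as log2(value + 1), against age in months. Each point is 1 library, bars are means of 4 libraries, and each panel has its own vertical axis, which does not start at 0. The points of Cyp4a12a, Cyp4a12b and Cyp2d9 step down with age, with replicate 3 of 30 months lowest in each, and those of Cyp2a4, Cyp2b9 and Cyp2b13 lie higher at 24 and 30 months.

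In the bile acid pathway 1 of 7 P450 genes fell at 30 months, Cyp7b1, a share near the 11.0% of all genes called lower in Liver. Cyp8b1, which directs synthesis towards cholic acid, read 3664, 4407, 5180 and 3588 at 6 months, 1436, 1160, 1576 and 2181 at 24 and 2848, 3437, 664 and 1676 at 30 months. Neither older range overlapped that of 6 months. It was called lower at 24 months (-1.43 ± 0.43 (SE), adjusted p = 0.0403) and missed the threshold at 30 months (-1.20 ± 0.43 (SE), adjusted p = 0.0507). Cyp7a1, the rate-limiting enzyme of the classical pathway, ranged from 2815 to 5139 at 6 months and from 1152 to 6258 at 30 months. Its groups overlapped (-0.40 ± 0.53 (SE), adjusted p = 0.625). The sterol hydroxylase Cyp27a1 gave -0.25 (adjusted p = 0.0761), Cyp2c70, which makes muricholic acids in mice, gave -0.23 (adjusted p = 0.201), and Cyp39a1 is given above. Cyp46a1, the cholesterol hydroxylase best known from neurons, was called at 24 months (1.14 (adjusted p = 0.0275)) but not at 30 months (0.50 (adjusted p = 0.27)). Of 12 other genes that handle bile acids, 8 fell and none rose, beside the same 11.0%, among them Hsd17b4 with -0.64 (adjusted p = 0.000332), Acox2 with -0.47 (adjusted p = 0.00395) and Hsd3b7 with -0.84 (adjusted p = 0.00734).

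Among the P450 genes expressed around the central vein, 3 of 7 fell, with a median of -0.44, beside 11.0% of all genes called lower. Cyp3a11, the main steroid and drug hydroxylase of mouse liver and a holder of the CAAAGTCCA motif shown above, read 129700, 126400, 104500 and 124100 at 6 months and 75120, 70320, 75390 and 76900 at 30 months. The ranges were apart, and the 24-month range of 57330 to 94220 also lay below that of 6 months. The log2 fold change was -0.70 ± 0.20 (SE), adjusted p = 0.0193 at 30 months, and the call was lost without replicate 1 of 6 months (adjusted p = 0.0521). Cyp1a2, which clears caffeine, read 9953, 8703, 8961 and 10670 at 6 months and 7187, 6319, 2579 and 7172 at 30 months. Replicate 3 of 30 months was far below the rest. Its change was -0.83 ± 0.24 (SE), adjusted p = 0.022, or -0.47 (adjusted p = 0.0121) without that replicate, and the call was lost without replicate 1 or replicate 4 of 6 months (adjusted p up to 0.0589). Cyp2c29 fell by 0.57 on the log2 scale (adjusted p = 0.0154). Cyp2e1, which oxidises ethanol and acetaminophen, ranged from 118300 to 142100 at 6 months and from 83040 to 110900 at 30 months. The ranges did not overlap, yet the change missed the threshold (-0.44 ± 0.18 (SE), adjusted p = 0.0804). The list also holds Cyp2a5, Cyp7a1 and Cyp27a1, described above. Beside these, 2 of 7 pericentral and 2 of 8 hepatocyte markers fell and none rose, and 9 of 9 macrophage markers rose from a sum of 5941 to 8916 to one of 12210 to 31180 normalised reads. These marker counts stand beside 13.8% of all genes called higher and the same 11.0% lower. The part of the markers in the P450 changes was not tested, nor was whether the falls were particular to this zone.

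By subfamily, 4 of 6 Cyp2d genes fell and none rose, beside 11.0% of all genes called lower. Besides Cyp2d9 the falls were those of Cyp2d10 with -0.60 (adjusted p = 0.00253), Cyp2d13 with -0.83 (adjusted p = 0.00564) and Cyp2d40 with -0.92 (adjusted p = 0.00662). Of 13 Cyp2c genes, 2 fell, a share near that of all genes, namely Cyp2c23 with -0.64 (adjusted p = 0.0149) and Cyp2c29. Cyp2j5, an arachidonic acid epoxygenase, read 16020, 15940, 16010 and 16570 at 6 months and 9373, 9206, 3898 and 9432 at 30 months. Its 6-month libraries lay within a narrow band and all 30-month ones far below it, replicate 3 lowest (-1.10 ± 0.21 (SE), adjusted p = 0.00193, or -0.79 (adjusted p = 0.000138) without replicate 3). Cyp2j6 fell as well (-1.07 (adjusted p = 0.000636)), while Cyp2j9 gave a higher call of 0.56 (adjusted p = 0.0262) that was lost without replicate 2 or 4 of 6 months or replicate 1 or 3 of 30 months (adjusted p up to 0.0809). Cyp4v3, a fatty acid hydroxylase, fell (-0.95 (adjusted p = 0.00187), or -0.68 (adjusted p = 0.000177) without replicate 3). Cyp2f2, which activates naphthalene, read 24510, 24030, 23770 and 23910 at 6 months and 15970, 16730, 4485 and 17960 at 30 months. Its 30-month range was below that of 6 months in all 4 libraries and replicate 3 was lowest by far. The change was -0.99 ± 0.31 (SE), adjusted p = 0.0286, or -0.51 (adjusted p = 0.00266) without replicate 3, and leaving out any 1 library of 6 months ended the call (adjusted p up to 0.0599). The remaining falls were those of Cyp2a12 (-0.40 (adjusted p = 0.00567)), Cyp4f15 (-0.57 (adjusted p = 0.00763)) and Cyp4f13 (-0.29 (adjusted p = 0.0426)). The Cyp4f13 call was lost without any 1 library of 6 months or without replicate 2 or 3 of 30 months (adjusted p up to 0.119).

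Other rises in Liver were those of Cyp4f18, Cyp1b1, Cyp4f16, Cyp2a22, Cyp2g1 and Cyp3a13. Cyp4f18, the leukotriene B4 hydroxylase of neutrophils, read 14.4, 8.44, 1.6 and 1.99 at 6 months and 37.5, 61.9, 66.3 and 23.3 at 30 months. All 4 older libraries were above the younger ones (2.94 ± 0.58 (SE), adjusted p = 0.00201). Cyp1b1, a dioxin-responsive enzyme of stromal cells, ranged from 6.75 to 32.4 at 6 months and from 30.8 to 129 at 30 months. Replicate 1 of 6 months overlapped the older range (2.10 ± 0.53 (SE), adjusted p = 0.00925). Beside these, 4 of 6 fibroblast markers rose, from a sum of 3810 to 4613 to one of 6678 to 9447 normalised reads, and 8 of 9 lymphocyte markers, from 149 to 255 to 1734 to 2740. These rises stand beside 13.8% of all genes called higher, and the part of the markers was not tested. Cyp4f16 gave 1.86 (adjusted p = 0.00218) and Cyp2a22 1.64 (adjusted p = 0.00392). Cyp3a13 was higher at 30 months (0.42 (adjusted p = 0.0191), lost without replicate 2 of 6 months at 0.0561) and already at 15 months (0.65 (adjusted p = 0.0169)). Cyp2g1, best known from olfactory mucosa, changed direction with age. It read 41.4, 55.7, 38.5 and 47.7 at 6 months, 10.2, 11.5, 14.5 and 10.8 at 15, 114, 99.3, 63.2 and 81.3 at 24 and 118, 141, 67.6 and 83.6 at 30 months. The 15-month libraries were all below those of 6 months and the libraries of 24 and 30 months all above them. The log2 fold changes were -1.88 ± 0.24 (SE), adjusted p = 0.00214 at 15 months, 0.93 ± 0.24 (SE), adjusted p = 0.0233 at 24 months and 1.10 ± 0.24 (SE), adjusted p = 0.00444 at 30 months.

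At 15 months 4 P450 genes were called in Liver, beside 1.23% of all genes. Cyp2g1, Cyp2a5 and Cyp2b10 (-2.42 (adjusted p = 0.0398)) were lower and Cyp3a13 was higher. At 24 months 14 were called, 8 higher and 6 lower, beside 11.6% of all genes, 7.6% higher and 3.99% lower. All ages share an estimate of the spread, and replicate 3 of 30 months enters it. Without that library 14 were called at 15 months, 31 at 24 months and 26 at 30 months, with all 4 and all 14 of the earlier calls kept at 15 and 24 months. The 26 were all among the 30 and lacked Cyp2b13, Cyp2j9, Cyp2u1 and Cyp4f13. Cyp1a1, the dioxin-inducible partner of Cyp1a2, did not pass at any age (-0.41 (adjusted p = 0.543) at 30 months), nor did Cyp21a1 of steroid synthesis (-1.11 (adjusted p = 0.418)), Cyp2r1 of vitamin D activation (-0.31 (adjusted p = 0.295)) or the retinoic acid hydroxylases Cyp26a1 (0.77 (adjusted p = 0.0556)) and Cyp26b1 (0.52 (adjusted p = 0.44)).

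Genes that serve P450 enzymes were read against the 13.8% of all Liver genes called higher and the 11.0% called lower. Of 9 redox partners 3 fell and none rose, namely Pgrmc1 (-0.58 (adjusted p = 0.00427)), Cyb5b (-0.86 (adjusted p = 0.00925)) and Pgrmc2 (-0.33 (adjusted p = 0.017)). Among 12 genes of heme synthesis and breakdown 5 fell, with Uros at -0.68 (adjusted p = 0.00277) and Cpox at -0.55 (adjusted p = 0.00565), and the heme oxygenase Hmox1 rose (1.77 (adjusted p = 0.00603)). Of 24 tested regulators 4 fell and none rose, a share of falls near that of all genes, led by Foxa1 (-0.84 (adjusted p = 0.00199)), the growth hormone receptor Ghr (-0.90 (adjusted p = 0.00806)) and Cebpa (-0.53 (adjusted p = 0.016)). Medians were -0.42 for the redox partners, -0.25 for the heme genes and -0.17 for the regulators, beside -0.02 for all genes.

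In Kidney 13 P450 genes rose and 7 fell, with a median log2 fold change of 0.20 beside 0.0008 for all genes. Replicate 3 of 30 months held the extreme value of many of them. Its proximal tubule markers summed to 167100 normalised reads, against 352400 to 407500 in the other 3 libraries of 30 months and 506900 to 554800 at 6 months, and 5 of these 9 markers fell while 1 rose. Macrophage markers rose in 6 of 7 tested, from a sum of 1626 to 1949 to one of 3626 to 9567. These counts stand beside 14.1% of all genes called higher and 14.2% lower. The part of either set of markers in the P450 changes was not tested.

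The clearest rise in Kidney was that of Cyp2c23, an arachidonic acid epoxygenase. It read 395, 492, 428 and 455 at 6 months, 810.5, 732, 736 and 732 at 15, 874, 1092, 831 and 1239 at 24 and 1003, 965, 1154 and 924 at 30 months. All 12 libraries of later ages lay above all 4 of 6 months. The log2 fold changes were 0.77 ± 0.11 (SE), adjusted p = 0.00349 at 15 months, 1.17 ± 0.11 (SE), adjusted p = 1.24e-05 at 24 months and 1.19 ± 0.11 (SE), adjusted p = 3.18e-06 at 30 months. Cyp2d12 read 2768, 3009, 3093 and 3792 at 6 months, 7692, 7240, 6614 and 7660 at 15, 5703, 8014, 4919 and 7705 at 24 and 7116, 7660, 10910 and 6488 at 30 months. It too was above the 6-month range in every later library (1.21 ± 0.16 (SE), adjusted p = 0.00299 at 15 months and 1.33 ± 0.16 (SE), adjusted p = 3.55e-05 at 30 months). Its relative Cyp2d22 rose at 30 months (1.19 ± 0.21 (SE), adjusted p = 0.000603).

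Fatty acid hydroxylases of the Cyp4a subfamily, several of them targets of the lipid sensor Ppara, went both ways in Kidney. Cyp4a14 read 217, 445, 328 and 974 at 6 months, 819, 1400, 568 and 5173 at 24 and 3629, 2870, 27820 and 2020 at 30 months. The 30-month libraries were all above those of 6 months, with replicate 3 far above the others (3.55 ± 0.71 (SE), adjusted p = 0.00178, or 2.72 (adjusted p = 0.00202) without it). Cyp4a10 read 3701, 4548, 4614 and 5652 at 6 months and 7244, 6540, 22030 and 5260 at 30 months. Its groups overlapped, and the call of 0.91 (adjusted p = 0.0421) was lost without replicate 3 of 30 months (0.46 (adjusted p = 0.0842)) or replicate 1, 2 or 3 of 6 months (adjusted p up to 0.104). Cyp4a12a read 5277, 5816, 4819 and 3672 at 6 months and 1894, 2926, 1061 and 1925 at 30 months. It fell, with groups apart (-1.40 ± 0.29 (SE), adjusted p = 0.00228). Its copy Cyp4a12b read 347, 443, 426 and 429 at 6 months, 639, 582, 671 and 798 at 15 and 551, 512, 709.6 and 437 at 30 months. The 15-month libraries were all above those of 6 months (0.70 ± 0.13 (SE), adjusted p = 0.022), while 1 library of 30 months overlapped them (0.41 ± 0.13 (SE), adjusted p = 0.0314). That later call was lost without replicate 1 or 3 of either age (adjusted p up to 0.102, and 0.28 (adjusted p = 0.102) without replicate 3 of 30 months). Since 41.3% and 40.8% of their stretches are shared, the division of reads between this pair is uncertain.

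Among the vitamin D and retinoid genes 2 of 5 tested rose in Kidney, beside 14.1% of all genes called higher. The median of the 5 was 1.55, and 1 of the 2 calls lay at very low levels. Cyp27b1, which makes the active form of vitamin D, read 111, 102, 263 and 129.6 at 6 months and 349, 239, 787 and 509 at 30 months. Replicate 3 of 6 months reached into the older range and the rest of that group lay below it (1.60 ± 0.33 (SE), adjusted p = 0.00188). Cyp26a1, which clears retinoic acid, was called at very low levels, with 3.84, 5.02, 2.54 and 3.04 at 6 months and 13.3, 12.2, 15.4 and 9.48 at 30 months. Those ranges did not overlap, but 6 of 8 omissions of a library ended the call of 1.57 (adjusted p = 0.0309), namely replicates 1, 3 and 4 of 6 months and 1, 2 and 3 of 30 months (adjusted p up to 0.0762). Cyp26b1 missed the threshold (1.55 (adjusted p = 0.0563)) but passed it without replicate 4 of 30 months (2.17 (adjusted p = 0.00605)) and without replicates 3 and 4 (1.86 (adjusted p = 0.0278)). Cyp24a1, which degrades vitamin D (0.28 (adjusted p = 0.711)), and Cyp2r1 (-0.33 (adjusted p = 0.543)) did not pass.

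Cyp2a5 rose in Kidney, where its twin Cyp2a4 did not pass. Cyp2a5 read 2731, 3717, 2163 and 2558 at 6 months and 6385, 4595, 18670 and 6588 at 30 months. All older libraries were above the younger ones, replicate 3 highest (1.50 ± 0.32 (SE), adjusted p = 0.00281, or 1.08 (adjusted p = 0.00194) without it). Cyp2a4 read 8073, 9474, 8791 and 8107 at 6 months and 9772, 10040, 5997 and 9996 at 30 months. Its groups overlapped and replicate 3 was lowest (0.03 ± 0.13 (SE), adjusted p = 0.902). Of the stretches of Cyp2a4 21% are shared with Cyp2a5, and 15.7% the other way, so part of either value may be assigned by estimate. Whether this moves with age or between libraries was not tested.

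**Figure D3:**
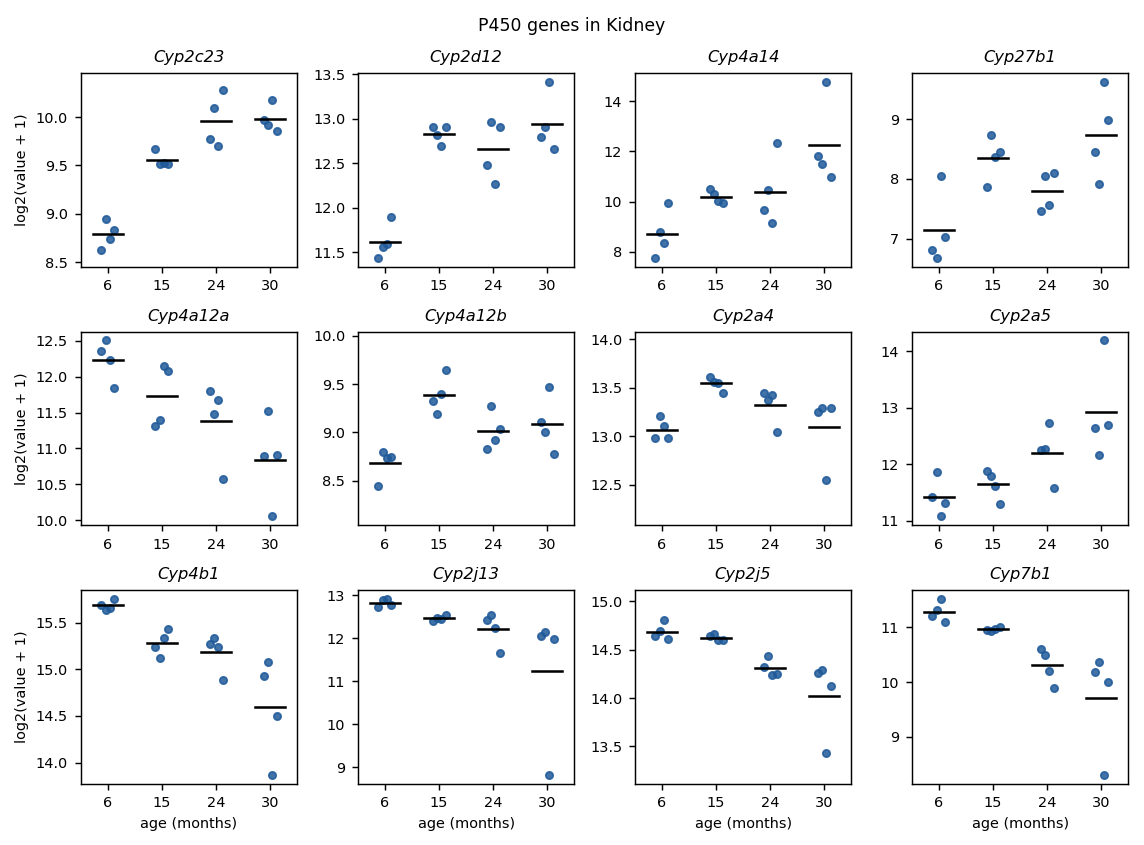
Normalised reads of 12 P450 genes in Kidney as log2(value + 1), against age in months. Each point is 1 library, bars are means of 4 libraries, and each panel has its own vertical axis, which does not start at 0. Cyp2c23 and Cyp2d12 stand higher from 15 months on, and at 30 months replicate 3 is the highest point of Cyp4a14 and Cyp2a5 and the lowest point of Cyp2j13, Cyp7b1 and Cyp4b1.

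The falls in Kidney included those of Cyp4b1, Cyp7b1 and the Cyp2j subfamily. Cyp4b1, which activates furan toxins, read 52980, 50980, 51450 and 55220 at 6 months, 38520, 35710, 41350 and 44290 at 15, 39500, 41380, 38750 and 30340 at 24 and 31090, 34530, 14960 and 23090 at 30 months. Every later library was below the 6-month range, but only the change at 30 months was called (-1.09 ± 0.19 (SE), adjusted p = 0.000532, or -0.85 (adjusted p = 0.00011) without replicate 3). Cyp7b1 read 2367, 2544, 2937 and 2200 at 6 months, 1567, 1448, 1181 and 950.2 at 24 and 1162, 1327, 316 and 1030 at 30 months. It was lower in each library of 24 and 30 months (-1.57 ± 0.31 (SE), adjusted p = 0.00146 at 30 months, or -1.10 (adjusted p = 2.94e-05) without replicate 3). Of 6 Cyp2j genes, a subfamily of arachidonic acid epoxygenases, 4 fell, beside 14.2% of all genes called lower. Cyp2j13 read 6790, 7565, 7722 and 6978 at 6 months and 4220, 4534, 452 and 4037 at 30 months. Replicate 3 was far below the others, and the change moved from -1.58 (adjusted p = 0.026) to -0.77 (adjusted p = 0.000758) without it. The call was lost without replicate 2 or 3 of 6 months (adjusted p up to 0.0585). Cyp2j5 gave -0.66 (adjusted p = 0.00183), Cyp2j11 -0.61 (adjusted p = 0.000449) and Cyp2j6 -0.22 (adjusted p = 0.0368). The Cyp2j6 call was lost without each library of 6 or 30 months other than replicate 4 of 6 months (adjusted p up to 0.113).

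Further rises in Kidney were Cyp4f18 with 1.80 (adjusted p = 0.00029), Cyp2f2 with 1.11 (adjusted p = 0.00215), Cyp4v3 with 0.77 (adjusted p = 0.000282) and Cyp1b1 with 0.59 (adjusted p = 0.00153). Cyp4v3 read 106, 80.3, 102 and 107 at 6 months and 159, 145, 179 and 192 at 30 months, with no overlap. At 15 months Cyp2c23, Cyp2d12 and Cyp4a12b were called, beside 0.48% of all genes. At 24 months 7 were called, 4 higher and 3 lower, beside 10.6% of all genes, 6.72% higher and 3.9% lower. Leaving out replicate 3 of 30 months gave 6, 16 and 16 calls at 15, 24 and 30 months, and leaving out replicate 4 as well gave 7, 17 and 17. All 7 calls of 24 months remained. At 30 months Cyp26a1, Cyp2j6, Cyp4a10 and Cyp4a12b were lost in both cases, and Cyp26b1 was gained when both libraries were left out. Leaving out replicate 4 alone gave 21 calls, with Cyp2j6 lost and Cyp26b1 and Cyp27a1 (0.45 (adjusted p = 0.0224)) gained. Among genes that serve P450 enzymes, the counts in Kidney stand beside 14.1% of all genes called higher and 14.2% lower. The redox partners Fdx1 (-0.36 (adjusted p = 0.00126)), Cyb5a (-0.54 (adjusted p = 0.00206)) and Por (-0.25 (adjusted p = 0.00909)) fell, as did Cyb5b, making 4 of 9. Among heme genes 4 of 12 fell, with Cpox at -0.63 (adjusted p = 0.000104) and Uros at -0.58 (adjusted p = 0.000922), and 1 rose. Of 21 tested regulators 3 fell, a share near that of all genes, including Ghr (-0.79 (adjusted p = 0.00174)) and Nr1h3 (-0.30 (adjusted p = 0.00775)), and the xenobiotic receptor Nr1i2 rose (0.60 (adjusted p = 0.00314)). Bile acid genes went both ways, with Baat at 1.39 (adjusted p = 0.000223), Hsd3b7 at 0.31 (adjusted p = 0.00516) and Amacr at -1.14 (adjusted p = 0.0024).

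In Lung the changes were smaller. Cyp2a5 read 1548, 1900, 2683 and 2411 at 6 months, 3736, 2806, 3213 and 3799 at 24 and 3267, 4068, 3646 and 3724 at 30 months. Both older ranges lay above that of 6 months (0.69 ± 0.16 (SE), adjusted p = 0.0111 at 24 months and 0.81 ± 0.16 (SE), adjusted p = 0.00329 at 30 months). Cyp1b1 read 192, 237, 192 and 229.6 at 6 months and 279, 276, 375 and 290.5 at 30 months. The ranges did not overlap, and replicate 3 of 30 months was the highest (0.51 ± 0.12 (SE), adjusted p = 0.00612). Cyp4v3 gave 0.27 (adjusted p = 0.00893), with 904 to 944 at 6 months and 1059 to 1186 at 30 months.

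The other 5 calls in Lung depended on single libraries. Cyp4f18 read 216, 192, 148 and 189 at 6 months and 389, 260.4, 274 and 708 at 30 months. All older libraries were higher, replicate 4 by far (1.02 ± 0.28 (SE), adjusted p = 0.0198), and the call was lost without replicate 4 of 30 months or replicate 3 of 6 months (adjusted p up to 0.06). Cyp4f16 gave 0.55 (adjusted p = 0.0242) and lost its call without replicate 4 of either age (adjusted p up to 0.0739), and Cyp7b1 gave 0.48 (adjusted p = 0.0188) and lost it without replicate 1 of 30 months (0.0585). Cyp4b1 read 8685, 8809, 9140 and 9292 at 6 months, 6807, 6154, 6625 and 6601 at 24 and 6212, 9161, 6898 and 6278 at 30 months. Its 24-month libraries were all below those of 6 months (-0.46 ± 0.09 (SE), adjusted p = 0.00468), whereas replicate 2 of 30 months lay within the 6-month range (-0.35 ± 0.09 (SE), adjusted p = 0.0159). That call was lost without replicate 1 or 4 of 30 months (adjusted p up to 0.058). Cyp2f2, the naphthalene-activating enzyme of club cells, read 52440, 52970, 61250 and 55450 at 6 months and 49570, 40950, 50090 and 40590 at 30 months. The older range was below the younger (-0.30 ± 0.09 (SE), adjusted p = 0.0369), and the call was lost without replicate 2, 3 or 4 of 6 months or 2 or 4 of 30 months (adjusted p up to 0.118). Without replicate 4 of 30 months, 4 calls were left in Lung.

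**Figure D4:**
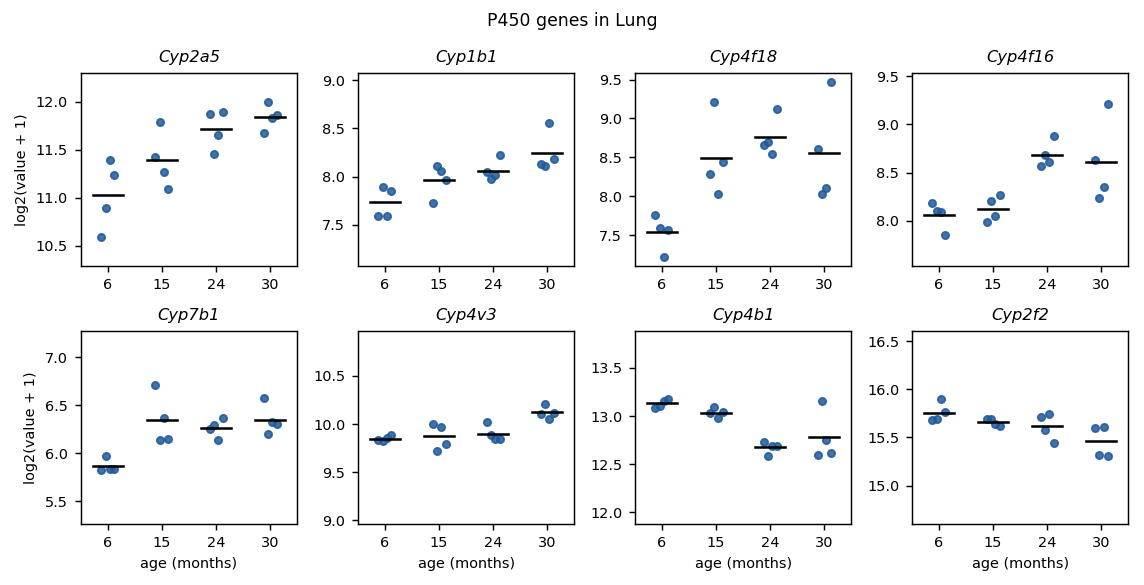
Normalised reads of 8 P450 genes in Lung as log2(value + 1), against age in months. Each point is 1 library, bars are means of 4 libraries, and each panel has its own vertical axis, which does not start at 0. Points of Cyp2a5 and Cyp1b1 lie higher at 30 months, and those of Cyp4b1 lie lower at 24 months than at 6 months.

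Club cell markers in Lung fell in 2 of 7, from a sum of 370300 to 455900 at 6 months to one of 285700 to 361400 at 30 months. Macrophage markers rose in 7 of 9, from 85260 to 99720 to 91570 to 114100, and lymphocyte markers in 6 of 9. These marker counts stand beside 10.7% of all genes called higher and 8.64% lower at 30 months. The part of these markers in the changes of Cyp2f2, Cyp4b1 and Cyp4f18 was not tested. At 24 months 4 P450 genes were called in Lung, Cyp2a5, Cyp4f16 (0.63 (adjusted p = 0.015)), Cyp4f18 (1.22 (adjusted p = 0.00922)) and Cyp4b1, beside 15.1% of all genes, 8.91% higher and 6.23% lower, and Cyp4b1 alone of the 4 was lower. None passed at 15 months, beside 1.63% of all genes, with 5 at an unadjusted p under 0.05 and 0 under edgeR. No redox partner passed in Lung (0 of 9, Pgrmc1 nearest at -0.14 (adjusted p = 0.116)) and no bile acid gene of 4 tested. Of the 12 heme genes, 2 rose and 1 fell, beside 10.7% of all genes called higher and 8.64% lower at 30 months, led by Blvrb (0.51 (adjusted p = 0.00823)), and of 19 tested regulators 1 rose and 2 fell, led by Tox (1.33 (adjusted p = 0.000477)).

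Calls in the other tissues were few. In Heart 2 of 20 tested rose at 30 months, beside 5.15% of all genes, and 5 were called without replicate 4 of 24 months, which stood apart. Cyp2b10, a classic target of the constitutive androstane receptor, read 6.71, 9.19, 4.02 and 6.25 at 6 months, 41, 73.3, 48.1 and 19.9 at 15, 57.1, 58.3, 56.6 and 70.8 at 24 and 49.2, 60.5, 88.8 and 54.6 at 30 months. Every later library was above all those of 6 months, with log2 fold changes of 2.53 ± 0.32 (SE), adjusted p = 0.00109 at 15 months, 3.07 ± 0.32 (SE), adjusted p = 7.4e-05 at 24 months and 3.10 ± 0.32 (SE), adjusted p = 2.56e-05 at 30 months. Cyp4f18 ranged from 1 to 9.59 normalised reads at 6 months and from 20.6 to 28 at 30 months (2.19 ± 0.45 (SE), adjusted p = 0.00839), and 7 of 7 tested macrophage markers rose beside it, from a sum of 3866 to 3980 to one of 5641 to 10050, whose part was not tested. Cyp1b1 was called in Heart at 15 months (1.13 (adjusted p = 0.0397), beside 0.587% of all genes) and Cyp4v3 at 24 months (0.89 (adjusted p = 0.0178), beside 4.92%).

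Muscle gave 3 calls among 21 tested, beside 13.1% of all genes. Cyp1b1 read 19.5, 22.2, 23.6 and 18.9 at 6 months, 42.1, 48.8, 73.1 and 66.8 at 15 and 53.1, 39.2, 108 and 85.1 at 30 months. The 6-month libraries were the lowest throughout (1.38 ± 0.28 (SE), adjusted p = 0.0349 at 15 months, beside 0.604% of all genes, and 1.61 ± 0.28 (SE), adjusted p = 0.00204 at 30 months). Its relative Cyp1a1 read 13.3, 23.2, 19.8 and 13.5 at 6 months and 18.7, 43.7, 61.6 and 55.2 at 30 months, with replicate 1 of 30 months inside the younger range. Replicate 3 of 30 months, which stood apart in Muscle, held the highest value of both genes, and without it Cyp1b1 gave 1.38 (adjusted p = 0.00329) and Cyp1a1 1.03 (adjusted p = 0.0541). The Cyp1a1 call of 1.22 (adjusted p = 0.0192) was lost without replicate 1 or 4 of 6 months or 3 or 4 of 30 months (adjusted p up to 0.0583). Cyp2u1 was lower (-0.61 (adjusted p = 0.0284)), a call lost without replicate 2, 3 or 4 of 6 months or 3 of 30 months (adjusted p up to 0.0828). Leaving out replicate 3 of 30 months left 2 calls, Cyp1b1 and Cyp4f39. Beside these, 5 of 7 tested macrophage markers rose, from a sum of 2727 to 3639 to one of 4174 to 6601 normalised reads, and 3 of 6 fibroblast markers fell and none rose, from 23740 to 32250 to 13080 to 19110. The fibroblast markers that fell were Col1a1 (-2.23 (adjusted p = 0.000529)), Col1a2 (-1.93 (adjusted p = 0.00249)) and Col3a1 (-2.30 (adjusted p = 0.00116)). The part of these markers in the P450 changes was not tested.

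Aorta gave 3 higher calls among 23 tested, beside 5.67% of all genes. Cyp2d22 read 773, 769, 568 and 559 at 6 months and 999.7, 1114, 986 and 1261 at 30 months, without overlap (0.72 ± 0.13 (SE), adjusted p = 0.0056). Cyp2b10 gave 1.98 (adjusted p = 0.0357) and Cyp1a1 1.37 (adjusted p = 0.0437). Neither held up to omission of a library: Cyp2b10 lost its call in 6 of 8 cases (all but replicate 3 of 6 months and replicate 2 of 30 months, adjusted p up to 0.092) and Cyp1a1 in 7 (all but replicate 4 of 6 months, adjusted p up to 0.117). At 24 months Cyp2b10 (2.22 (adjusted p = 0.0223)), Cyp4b1 (0.82 (adjusted p = 0.0163)) and Cyp2e1 (1.35 (adjusted p = 0.0493)) were higher, beside 5.81% of all genes. Cyp2e1 ran from 8312 to 32640 normalised reads within the 6-month libraries alone, and omission of libraries is not given for these 24-month calls. No cell type markers are given here for Aorta, and their part in these changes was not tested.

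In Brain Cyp2e1 (1.44 (adjusted p = 0.0493)), Cyp27a1 (0.49 (adjusted p = 0.0445)) and Cyp4v3 (0.39 (adjusted p = 0.0486)) were called among 24 tested, beside 7.5% of all genes. None of the 3 was called by edgeR (adjusted p of 0.0705, 0.0598 and 0.0576), and each lost its call without 5 or 6 of the 8 libraries of 6 and 30 months, replicates 2 and 3 of 6 months and 2 and 4 of 30 months among them for all 3. Beside them 5 of 7 tested macrophage markers rose, from a sum of 3142 to 3273 to one of 3901 to 4806 normalised reads, led by Lyz2 (1.76 (adjusted p = 2.2e-08)). Among hepatocyte markers Apoa1 rose (1.29 (adjusted p = 0.0126)). Alb (1.18 (adjusted p = 0.0989)), Serpina1c (1.24 (adjusted p = 0.141)), Cps1 (0.57 (adjusted p = 0.465)) and Ttr (0.24 (adjusted p = 0.5)) did not pass. The part of either set of markers was not tested. In Skin 0 of 36 were called at 30 months, beside 0.72% of all genes, with 4 at an unadjusted p under 0.05 and 0 under edgeR.

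Tissues were then compared for their change over life by a direct test. Between Kidney and Liver the change at 30 months differed for 12 of 40 P450 genes tested in both, beside 8.07% of all genes. For 9 of them the change was the more positive in Kidney. Cyp2c23 rose in Kidney and fell in Liver, and the difference of its log2 fold changes was 1.83 ± 0.21 (SE), adjusted p = 3.68e-06. Cyp4v3 (1.71 ± 0.22 (SE), adjusted p = 1.05e-05), Cyp2f2 (2.10 ± 0.40 (SE), adjusted p = 0.000857) and Cyp4a12b (3.52 ± 0.52 (SE), adjusted p = 5.97e-05) likewise rose in Kidney and fell in Liver. The Kidney rise of Cyp4a12b was small and was lost on omission of some single libraries. The division of its reads with Cyp4a12a is also uncertain, as given above. Cyp2a4 differed by -4.25 ± 0.75 (SE), adjusted p = 0.000391, with a rise in Liver and no call in Kidney. Cyp2d9 (1.67 ± 0.31 (SE), adjusted p = 0.000836) fell in Liver with no call in Kidney, Cyp4b1 (-1.30 ± 0.28 (SE), adjusted p = 0.00296) fell in Kidney with no call in Liver, and Cyp2j6 (0.85 ± 0.19 (SE), adjusted p = 0.00418) had the larger fall in Liver.

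Cyp2d22 (1.41 ± 0.26 (SE), adjusted p = 0.000672) rose in Kidney with no call in Liver. The difference of Cyp2a5 was 1.27 ± 0.39 (SE), adjusted p = 0.039, but it was lost in 9 of 16 omissions of a library (replicates 1, 3 and 4 of 6 months and 3 of 30 months in Kidney, and replicates 1, 3 and 4 of 6 months and 1 and 2 of 30 months in Liver, adjusted p up to 0.0862). Cyp4f16 (-1.49 ± 0.40 (SE), adjusted p = 0.0197) was lost without replicate 3 of either age in Liver (adjusted p up to 0.052) and Cyp27a1 (0.61 ± 0.17 (SE), adjusted p = 0.0218) without replicate 4 of 6 months in Liver (0.052). The other 9 passed in all 16 omissions.

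**Figure D5:**
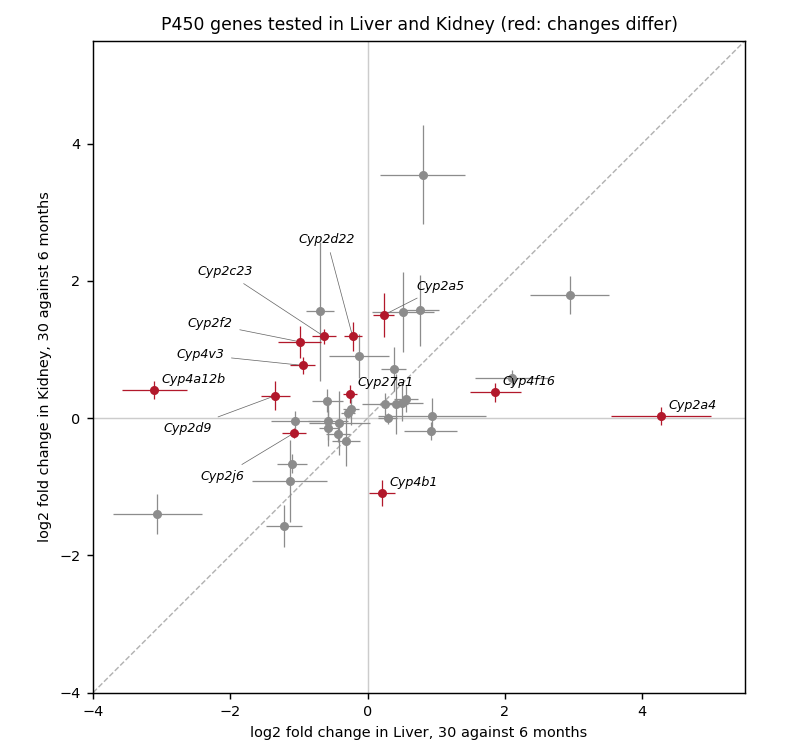
Log2 fold change of 30 against 6 months in Liver (horizontal) and Kidney (vertical) for the 40 P450 genes tested in both, with bars of 1 standard error, and a dashed line of equal change. Red points are the 12 genes whose changes differed between the tissues. Cyp2a4 lies far to the right near 0 in Kidney, and Cyp2c23, Cyp2f2, Cyp4v3 and Cyp4a12b lie at the upper left.

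Between Lung and Liver the change differed for 10 of 28 P450 genes, beside 17.7% of all genes, with the same Liver libraries serving both pairs of tissues. Cyp7b1 rose in Lung and fell in Liver (1.70 ± 0.30 (SE), adjusted p = 0.000262), as did Cyp4v3 (1.22 ± 0.20 (SE), adjusted p = 0.000123). Cyp4a12b (2.78 ± 0.63 (SE), adjusted p = 0.00274), Cyp2j6 (0.87 ± 0.20 (SE), adjusted p = 0.0036) and Cyp4f15 (0.77 ± 0.19 (SE), adjusted p = 0.00482) had a fall in Liver with no call in Lung. Cyp2a4 (-3.25 ± 0.84 (SE), adjusted p = 0.00752) was the more positive in Liver. The differences of Cyp4f16 (-1.31 ± 0.41 (SE), adjusted p = 0.0269), Cyp4f18 (-1.93 ± 0.66 (SE), adjusted p = 0.0415), Cyp2u1 (1.37 ± 0.44 (SE), adjusted p = 0.0316) and Cyp1b1 (-1.59 ± 0.56 (SE), adjusted p = 0.0492) were lost in 5, 10, 6 and 13 of 16 omissions, among them replicate 3 of 30 months in Liver for all 4 (adjusted p up to 0.0744, 0.105, 0.0869 and 0.128). With edgeR the differences of Cyp2u1 (adjusted p = 0.069) and Cyp4f18 (adjusted p = 0.0841) did not pass either.

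Some members were called the same way in many tissues at 30 months, and how often other genes were is not at hand. Cyp1b1 was higher in Kidney, Liver, Lung and Muscle, and Cyp4f18 in Heart, Kidney, Liver and Lung. Cyp1b1 is known from stromal cells and Cyp4f18 from myeloid cells. Where Cyp1b1 was higher, fibroblast markers rose in 4 of 6 in Liver and 3 of 6 in Kidney, and fell in 3 of 6 in Lung and 3 of 6 in Muscle. Where Cyp4f18 was higher, macrophage markers rose in 9 of 9 in Liver, 6 of 7 in Kidney, 7 of 9 in Lung and 7 of 7 in Heart. These counts stand beside 13.8% of all genes called higher in Liver, 14.1% in Kidney and 10.7% in Lung, and 8.64% lower in Lung. In Muscle 13.1% and in Heart 5.15% of all genes were called in either direction. The part of these markers in the changes of Cyp1b1 and Cyp4f18 was not tested.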

How the data were processed

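The deposited tables, one per tissue, hold a signal: reads per gene as normalised by the authors, without separate counts. The labels' protocols give RNAiso Plus extraction of frozen pulverised tissue and the Illumina Stranded mRNA Prep kit, and the submitters' processing notes name FastQC, STAR, RSEM, DESeq2 and GRCm39, with no versions. Which annotation was used is not stated there. Low values of each library were whole multiples of 1 read, and 100% of the recovered reads were whole within 0.01 reads, which gave the depths of 7.65 to 82.8 M reads.

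Changes were tested within each tissue by limma-trend (limma 3.58.1, R 4.3.3) on log2(value + 1) over its 16 libraries, after filterByExpr on the recovered reads at a minimum count of 10, two-sided, with Benjamini-Hochberg adjustment over all genes tested and a threshold of 0.05. A fold change on this scale understates changes of low genes. Differences between tissues were contrasts of contrasts over the 32 libraries of a pair, which were normalised separately. Alternatives were edgeR 4.0.16 (quasi-likelihood, TMM) on the recovered reads, TMM scaling, other pseudocounts, no filter, 2 ages alone, a replicate block and omission of each library. The count test called 32 P450 genes in Liver, 22 in Kidney and 8 in Lung at 30 months. The scripts were tested on simulated data. Python 3.11.15, pandas 2.3.3, numpy 2.4.6 and matplotlib 3.10.9 made the tables and figures.

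The members and gene lists were chosen with earlier results of these data known. Named were the 8 highest and 8 lowest called changes in Liver, Kidney and Lung, the 3 highest and 3 lowest elsewhere, members of 7 P450 lists whatever they did, members called at 15 or 24 months where at most 5 were, and the 3 smallest adjusted p of each pathway list. Other called members in the subfamily accounts were chosen after their values were seen.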

Additional observations from a re-analysis of the deposited data

Results flagged for a closer look

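In each tissue, a P450 gene that the text names was checked at each age for a library far from its 3 companions, by its gap to the nearest one relative to the range of the 4. Of 392 such groups 27 held one, or 6.89%, and chance flags about 1 in 20.

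In Liver, replicate 3 of 30 months read 1127 for Cyp7b1, against 3056 to 3492 in the others, 3898 for Cyp2j5, against 9206 to 9432 in the others, 113 for Cyp2u1, against 263 to 302 in the others, 4485 for Cyp2f2, against 15970 to 17960 in the others and 2579 for Cyp1a2, against 6319 to 7187 in the others. Replicate 4 of 6 months read 0 for Cyp2b13, against 3.38 to 4.81 in the others and 16570 for Cyp2j5, against 15940 to 16020 in the others. Replicate 4 of 15 months read 33.6 for Cyp2c69, against 53.8 to 58.8 in the others and 158700 for Cyp2e1, against 106300 to 111800 in the others. Replicate 3 of 6 months read 1881 for Cyp2j6, against 2067 to 2104 in the others. Replicate 4 of 24 months read 592 for Cyp26a1, against 899 to 977 in the others. Replicate 2 of 6 months read 118300 for Cyp2e1, against 138100 to 142100 in the others.

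In Kidney, replicate 3 of 30 months read 452 for Cyp2j13, against 4037 to 4534 in the others, 7069 for Cyp2d9, against 2947 to 3318 in the others and 5997 for Cyp2a4, against 9772 to 10040 in the others. Replicate 1 of 15 months read 810.5 for Cyp2c23, against 732 to 736 in the others. Replicate 4 of 6 months read 309.8 for Cyp2d22, against 256 to 263 in the others. Replicate 1 of 6 months read 347 for Cyp4a12b, against 426 to 443 in the others. Replicate 2 of 6 months read 16.3 for Cyp2c69, against 26.3 to 28.8 in the others. Replicate 4 of 24 months read 1.16 for Cyp26a1, against 9.08 to 11.5 in the others.

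In Lung, replicate 3 of 30 months read 375 for Cyp1b1, against 276 to 290.5 in the others. Replicate 2 of 6 months read 61.8 for Cyp7b1, against 55.9 to 56.1 in the others. Replicate 1 of 15 months read 6396 for Cyp2b10, against 6810 to 6841 in the others. Replicate 2 of 24 months read 18.3 for Cyp46a1, against 23.2 to 23.5 in the others. Replicate 4 of 24 months read 141 for Cyp11a1, against 13.7 to 15.9 in the others.

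In Brain, replicate 3 of 30 months read 129 for Cyp27a1, against 154 to 158 in the others, and in Heart replicate 4 of 24 months read 70.8 for Cyp2b10, against 56.6 to 58.3.

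Changes from 6 to 30 months differed between Kidney and Liver, as the log2 fold change in Kidney minus that in Liver, for 12 P450 genes by limma-trend: Cyp27a1 by 0.61, Cyp2a4 by -4.25, Cyp2a5 by 1.27, Cyp2c23 by 1.83, Cyp2d22 by 1.41, Cyp2d9 by 1.67, Cyp2f2 by 2.10, Cyp2j6 by 0.85, Cyp4a12b by 3.52, Cyp4b1 by -1.30, Cyp4f16 by -1.49 and Cyp4v3 by 1.71.

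Changes from 6 to 30 months differed between Lung and Liver, as the log2 fold change in Lung minus that in Liver, for 10 P450 genes by limma-trend: Cyp1b1 by -1.59, Cyp2a4 by -3.25, Cyp2j6 by 0.87, Cyp2u1 by 1.37, Cyp4a12b by 2.78, Cyp4f15 by 0.77, Cyp4f16 by -1.31, Cyp4f18 by -1.93, Cyp4v3 by 1.22 and Cyp7b1 by 1.70.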

How the results depend on the processing

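Counts of called P450 genes at 30 months stayed within 1.5 times of the reported value in Liver, Kidney and Skin under every alternative run, and no named change reversed. Elsewhere small counts moved. With 2 ages fitted alone, 30-month calls were 5 in Lung, 1 in Aorta, 1 in Brain, 5 in Heart and 1 in Muscle, those of 24 months were 31 in Liver, 15 in Kidney and 7 in Lung, and those of 15 months were 7 in Liver, 10 in Kidney and 1 in Lung. Without the filter, 1 was called in Aorta and 1 in Brain at 30 months, 5 in Liver and 4 in Kidney at 24 months and 2 in Liver at 15 months. With edgeR, 0 were called in Brain at 30 months and 9 in Liver at 24 months, and with a pseudocount of 5, 1 in Brain. The causes of these shifts were not tested.

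Omitting each library of the ages compared gave 24 to 36 calls in Liver, 15 to 21 in Kidney, 4 to 10 in Lung, 1 to 4 in Aorta, 1 to 3 in Muscle, 2 to 2 in Heart, 0 to 3 in Brain and 0 to 0 in Skin at 30 months. At 24 months the range was 2 to 12 in Liver, 3 to 6 in Kidney and 3 to 5 in Lung, and at 15 months 1 to 6 in Liver, 2 to 3 in Kidney and 0 to 0 in Lung. For the differences between tissues it was 10 to 14 between Kidney and Liver and 6 to 13 between Lung and Liver, the lowest without replicate 3 of Lung at 30 months. Alternatives chosen after seeing the data left out libraries that stood apart, also where their age was not compared. Without replicate 3 of Liver at 30 months there were 31 calls at 24 months and 14 at 15 months in Liver. Without replicate 3 of Kidney at 30 months there were 16 at 24 months and 6 at 15 months in Kidney, and 17 and 7 without its replicate 4 too. Heart had 5 at 30 months without replicate 4 of 24 months.

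A replicate block gave 31 calls in Liver, 21 in Kidney, 9 in Lung, 5 in Muscle, 14 between Kidney and Liver and 9 between Lung and Liver. Within a tissue, the lowest correlation between deviations of same-numbered libraries of different ages was negative, from -0.56 in Skin to -0.05 in Heart. Their median was 0.05 in Brain, against -0.01 for other numbers, and -0.07 in Skin, against 0.02. It lay above that of other numbers in every tissue but Skin. These values cannot decide whether same-numbered libraries share more than a number. Across tissues, of the 16 pairs with the same age and number, 5 correlated above 0.1 between Kidney and Liver (from -0.26 to 0.36) and 5 between Lung and Liver (from -0.27 to 0.25), and whether such a pair is 1 animal is not given in the labels. Of the named genes, omission of a library left 684 of 784 calls or non-calls as they were, 88 lost a call and 12 gained one.

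Depth limits the low members: Cyp2a4 and Cyp2b13 in Liver and Cyp26a1 in Kidney rest on a few reads per library at 6 months.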
